A study of Mus musculus with 7 samples.

Results

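The genes described here make sterols and fatty acids or move sterol out of cells, and they were followed in the nucleus pulposus, the soft centre of the disc between 2 vertebrae, of mice with and without the lactate exporter MCT4. A list of 37 genes named by symbol was used, of which 33 carried a named feature on the array, out of 19505 named genes in all. Tm7sf2, Srebf1, Scd2 and Nr1h2 had no feature under their names and were not analysed here. Each of 7 animals gave 1 RNA sample, pooled from its discs, and each sample was hybridised to its own Affymetrix array. There were 4 wild-type animals (WT), described as 13 months old, and 3 global MCT4 knockouts (MCT4KO), described as 14 months old, and age therefore cannot be told apart from genotype. Per the labels, wild types and knockouts were littermates bred from MCT4+/- parents after 10 generations of backcrossing to C57Bl/6N. The described ages, 13 months for every WT and 14 for every MCT4KO animal, conflict with littermates across the groups, and this was not resolved. The strain field reads C57BL/6 for every animal, while the series' design text gives C57Bl/6N for the knockouts alone. The deletion is in every tissue of the animal.

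Cholesterol is built from acetyl-CoA through mevalonate, squalene and lanosterol, and fatty acids from the same acetyl-CoA through malonyl-CoA. SREBP transcription factors, held in the endoplasmic reticulum by SCAP and INSIG proteins when sterol is plentiful, switch on the synthetic enzymes when sterol runs low. LXR nuclear receptors sense oxysterols and switch on the exporters ABCA1 and ABCG1, so that synthesis and efflux are usually set in opposite directions. Nucleus pulposus cells live without blood vessels and largely by glycolysis, and they release its end product, lactate, through MCT4.

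The study's purpose was to ask how loss of MCT4 affects the disc. Slc16a3, which encodes MCT4, checked the labels: its log2 value was 13.35 to 13.61 in WT and 4.47 to 5.02 in MCT4KO, where every reading lay below the control median described next. By limma the change was -8.65 with an SE of 0.165 and an adjusted p of 6.7e-09; a two-sided exact permutation test gave p = 0.0286, the least that 35 splits allow. Values are on the authors' deposited log2 scale. The 5222 negative control features had a median of 5.99, and a group is called at background for a gene where each of its arrays reads at or below its own control median. Of 12 measured nucleus pulposus markers, 1 (Car12) was at background in both groups. Krt19 read 17.00 to 17.32 in all 7 animals and Car3, a carbonic anhydrase, 19.25 to 19.41. Not every marker was steady: 9 of the 12 were higher in MCT4KO and 3 lower (25.0%, against 47.0% of all genes). Col2a1 differed most, with 7.58 to 8.30 in WT and 8.85 to 10.08 in MCT4KO, without overlap (a change of 1.32, limma adjusted p = 0.088). In bulk tissue, fewer cells of a type and less RNA per cell cannot be told apart. Of the neutrophil and myeloid marrow markers, 13 of 14 were lower in MCT4KO, but the groups parted without overlap for only 4. The list mean (log2) was 7.37 for WT 1, 9.24 for WT 2, 5.83 for WT 3 and 6.06 for WT 4. Knockout means were 5.76 (MCT4KO 1), 5.29 (MCT4KO 2) and 5.25 (MCT4KO 3). High means were thus confined to WT 1 and WT 2, and WT 3 lay just above MCT4KO 1. At background in MCT4KO alone were 7 of the 14, of which Camp and Ltf read above the control median in WT 2 only. Cell proliferation markers were lower in 9 of 11, with means of 7.05 to 7.45 in WT and 6.61 to 6.67 in MCT4KO. An adjusted p under 0.05 by limma was reached by 2 of the 11, where 0.590% of all genes reached it. These were Mki67 (-1.75, limma adjusted p = 0.015) and Rrm2 (-1.54, limma adjusted p = 0.048). The part of the neutrophil and myeloid markers, or of the proliferation markers, in the results below was not tested.

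Promoter sequence was examined because SREBPs bind beside the general factors NF-Y, which binds CCAAT, and Sp1, which binds GGGCGG, and the sequences below show how these letters lie before the genes the results turn on. RefSeq windows (GRCm38.p6) from 250 bases before to 50 after a gene's start were found for 29 of the 37 genes. CCAAT, on either strand, lay in the windows of 22 of the 29 (75.9%) against 41.1% of all 27025 genes in the table, and in all 14 sterol synthesis enzymes that had a window. GGGCGG lay in 21 of the 29 (72.4%) against 38.2% of all genes. The sterol regulatory element in the form TCACNCCAC was found for Hmgcs1 alone, against 1.44% of all genes, and the E-box CACGTG for 7 of the 29 (24.1%, against 8.09%). The LXR direct repeat in its strict form, AGGTCA repeated after 4 open bases, matched 0 of the 29 and 0.0148% of all genes; a relaxed form, GGTNA followed after 5 open bases by GGTCA and chosen after the Abca1 window had been read, matched Abca1, Fasn and Srebf1 (10.3% of the 29, against 0.226%). A match is a stretch of letters, not a measured binding site. The 200 bases before the start are given 5′ to 3′ on the gene's strand, with matches on either strand to the motifs above (the LXR repeat in its relaxed form) in capitals. Cyp51 lies at chr5:4104698-4104897 (minus strand), Dhcr7 at chr7:143822967-143823166 (plus strand), Idi1 at chr13:8885406-8885605 (plus strand), Mvk at chr5:114444069-114444268 (plus strand), Hmgcs1 at chr13:119690151-119690350 (plus strand), Acly at chr11:100528001-100528200 (minus strand) and Abca1 at chr4:53159896-53160095 (minus strand). Hmgcs1 is shown as the carrier of the sterol regulatory element, Abca1 as the gene with the smallest p among those with higher values in MCT4KO, and the rest as those with lower values in MCT4KO. Dhcr7 has 3 windows and the one shown is the first in the table.
Cyp51: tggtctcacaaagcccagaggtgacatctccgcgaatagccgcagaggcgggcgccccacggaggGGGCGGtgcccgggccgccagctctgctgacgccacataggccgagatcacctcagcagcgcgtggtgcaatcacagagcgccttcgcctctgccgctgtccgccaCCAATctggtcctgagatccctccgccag
Dhcr7: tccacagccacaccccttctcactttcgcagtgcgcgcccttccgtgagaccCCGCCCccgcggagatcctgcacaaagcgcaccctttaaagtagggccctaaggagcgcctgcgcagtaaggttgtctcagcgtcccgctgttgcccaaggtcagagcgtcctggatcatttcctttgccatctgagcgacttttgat
Idi1: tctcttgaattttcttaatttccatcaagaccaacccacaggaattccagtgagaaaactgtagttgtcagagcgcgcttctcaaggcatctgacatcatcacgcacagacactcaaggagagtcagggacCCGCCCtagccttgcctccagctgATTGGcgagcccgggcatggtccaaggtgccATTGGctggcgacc
Mvk: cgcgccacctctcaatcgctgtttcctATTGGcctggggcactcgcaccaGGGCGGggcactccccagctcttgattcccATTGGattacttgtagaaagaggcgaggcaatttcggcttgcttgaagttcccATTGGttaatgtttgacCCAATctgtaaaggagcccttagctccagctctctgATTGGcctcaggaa
Hmgcs1: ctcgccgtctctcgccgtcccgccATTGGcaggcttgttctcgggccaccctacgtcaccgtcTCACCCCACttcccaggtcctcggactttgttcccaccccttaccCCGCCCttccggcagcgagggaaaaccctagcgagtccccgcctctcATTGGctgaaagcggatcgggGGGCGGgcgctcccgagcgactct
Acly: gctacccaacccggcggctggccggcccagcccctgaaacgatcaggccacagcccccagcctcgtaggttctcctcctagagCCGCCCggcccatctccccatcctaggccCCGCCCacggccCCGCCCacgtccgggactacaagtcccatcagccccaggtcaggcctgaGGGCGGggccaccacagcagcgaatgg
Abca1: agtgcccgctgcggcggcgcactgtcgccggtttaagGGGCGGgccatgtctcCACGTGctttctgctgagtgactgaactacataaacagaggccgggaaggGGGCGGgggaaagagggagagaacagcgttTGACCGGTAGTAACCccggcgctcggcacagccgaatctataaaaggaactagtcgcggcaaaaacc
In these stretches Mvk held 5 CCAAT boxes, Idi1 and Hmgcs1 2 each and Cyp51 1, while Dhcr7, Acly and Abca1 held 0. Acly held 4 GC boxes, and the capitals nearest the start of Abca1, which begin 67 bases before it, are the relaxed LXR repeat.

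In MCT4KO, 13 of the 16 measured enzymes of sterol synthesis read lower (81.2%, against 47.0% of all genes). The 4 listed genes of sterol transfer, efflux and LXR read higher, of which only Abca1 was without overlap. Abcg4, an exporter outside the list, read lower (-0.46 ± 0.251). The fatty acid branch went both ways, and no gene of the 33 passed the test on its own. With limma over all genes, 0 of 33 had an adjusted p under 0.05, where 0.590% of all genes did. At an unadjusted p under 0.05 there were 8 of 33 (24.2%, against 12.7% of all genes), 6 lower (18.2%, against 6.90%) and 2 higher (6.06%, against 5.76%). Over the 33, 21 were below 0 (63.6%, against 47.0% of all genes; 19 under quantile normalization and 22 under median centring), with a median of -0.11, against 0.02 over all genes. The groups did not overlap for 9 of 33 (27.3%, against 12.0% of all genes): 8 were lower (24.2%, against 6.37%) and 1 was higher (3.03%, against 5.66%). The list was chosen with earlier results of these data known. Shares set beside those of all genes, here and below, therefore describe the list and test nothing. Fdps, at background in both groups, is among the 6 and the 8 that were lower. Without genes below the control median, 7 of 32 were lower without overlap (21.9%, against 10.0% of all genes). With fewer animals, ranges part more often among all genes too. With WT 1 and WT 2 left out, the 8 became 11 (33.3%, against 13.8% of all genes). The 1 became 4 without MCT4KO 1 (12.1%, against 9.64% of all genes). It became 2 (6.06%) without WT 2, WT 4, MCT4KO 2 or MCT4KO 3, where the shares of all genes were 7.93%, 8.35%, 11.4% and 11.3%. The median was -0.06 without MCT4KO 1, -0.07 without MCT4KO 3, -0.06 without WT 1 and WT 2, and -0.04 under quantile normalization.

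**Figure D1:**
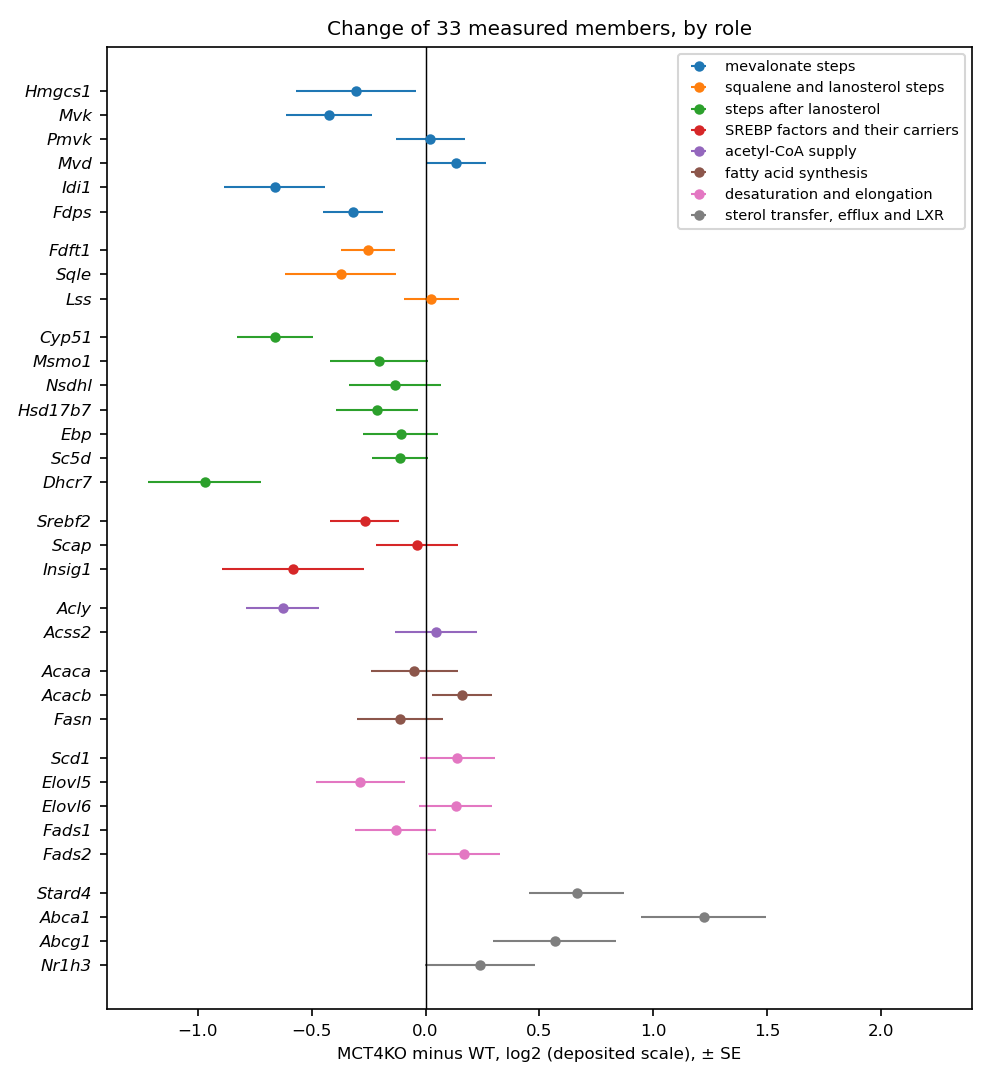
Change of each of the 33 measured genes (MCT4KO minus WT, log2 on the deposited scale; points are limma estimates, bars are SE), grouped and coloured by role. The 7 enzymes after lanosterol all lie below 0, down to -0.97 for Dhcr7, and the 4 genes of sterol transfer, efflux and LXR all lie above 0, up to 1.22 for Abca1.

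The 16 measured enzymes from acetoacetyl-CoA to cholesterol were mostly lower: 13 were below 0 (81.2%, against 47.0% of all genes), with a median of -0.23. Under median centring 14 were below 0, with Pmvk. At an unadjusted p under 0.05 there were 5 of the 16, all lower, where 6.90% of all genes were lower at that p. Among these 5 is Fdps, which was at background in both groups. Averaged over the 16, WT 1 to 4 had log2 values of 9.21, 9.12, 9.20 and 9.33, and MCT4KO 1 to 3 had 8.94, 8.92 and 8.92. The groups did not overlap. MCT4KO 1, 2 and 3 read below every WT animal for 9, 8 and 10 of the 16 (against 26.6%, 21.4% and 21.9% of all genes). They read above every WT animal for 2, 3 and 0 of the 16, where the shares of all genes were 28.1%, 23.6% and 23.8%. These means sit beside the lower proliferation means given above, whose groups did not overlap either.

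Among the 6 mevalonate enzymes, 4 were below 0. Idi1, the isomerase that makes the activated isoprene dimethylallyl diphosphate, read 8.36, 8.17, 8.34 and 8.63 in the WT animals (given here and below in the order 1 to 4) and 8.03, 7.15 and 7.96 in the MCT4KO animals (in the order 1 to 3). Every MCT4KO animal lay below every WT animal, with MCT4KO 2 lowest. The change was -0.66 ± 0.221 (SE; limma adjusted p = 0.27), and -0.38 without MCT4KO 2. Mvk, mevalonate kinase, read 6.82, 6.65, 6.51 and 6.93 in WT and 6.46, 5.88 and 6.57 in MCT4KO. Its groups overlapped through MCT4KO 3, and MCT4KO 2 was again lowest. The change of Mvk was -0.42 ± 0.189 (adjusted p = 0.39), or -0.21 without MCT4KO 2. Fdps, which makes farnesyl diphosphate, read 5.86, 5.78, 5.85 and 6.04 in WT and 5.70, 5.53 and 5.45 in MCT4KO, and its change was -0.32 ± 0.132 (adjusted p = 0.36). Both groups of Fdps were at background, so this difference gives no size of change. Hmgcs1, HMG-CoA synthase, had -0.31 ± 0.265 and spread widely in WT, from 12.21 in WT 2 to 13.32 in WT 4; it was -0.08 without WT 4. Mvd, which decarboxylates a mevalonate intermediate, and Pmvk, which phosphorylates one, lay at 0.13 ± 0.133 and 0.02 ± 0.151. The sign of Pmvk turned under median centring.

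Of the 3 steps from farnesyl diphosphate to lanosterol, Fdft1, squalene synthase, had the smallest p. It read 11.25, 11.23, 11.18 and 11.15 in WT and 10.88, 10.93 and 11.02 in MCT4KO. The groups did not overlap and each was tight, with SDs of 0.0481 (n = 4) and 0.0706 (n = 3), yet the change was small, at -0.25 ± 0.119 (adjusted p = 0.42). Sqle, the rate-limiting squalene epoxidase, had -0.37 ± 0.243, with WT values from 7.52 to 8.52 that enclosed all 3 MCT4KO values (7.66 to 7.81). The change of Sqle was -0.56 without WT 1, -0.24 without WT 3 and -0.23 without WT 4. Lss, lanosterol synthase, had 0.02 ± 0.122 (95% CI -0.25 to 0.30).

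All 7 measured enzymes after lanosterol were below 0, with a median of -0.20, and the 2 with the smallest p stood at either end of this stretch. Cyp51, the lanosterol demethylase that opens it, read 8.65, 8.20, 8.34 and 8.72 in WT and 7.79, 7.98 and 7.68 in MCT4KO. The highest knockout value lay below the lowest wild-type value. The mean went from 8.48 ± 0.249 (SD, n = 4) to 7.82 ± 0.152 (SD, n = 3), a change of -0.66 ± 0.165 (SE; 95% CI -1.03 to -0.29; adjusted p = 0.14), and it ranged from -0.75 to -0.58 as single animals were left out. Dhcr7, the reductase that closes the Kandutsch-Russell route to cholesterol, read 10.45, 9.98, 9.89 and 9.80 in WT and 8.51, 9.12 and 9.55 in MCT4KO. The groups did not overlap, though MCT4KO 3 came within a small step of WT 4. Dhcr7 had a change of -0.97 ± 0.248 (95% CI -1.52 to -0.42; adjusted p = 0.15), which is 1.96-fold lower, with a range of -1.21 to -0.69 as single animals were left out. The 5 enzymes between them had smaller differences: Msmo1, Nsdhl, Hsd17b7, Ebp and Sc5d, which remove methyl groups and rearrange the double bonds of the ring, lay from -0.21 to -0.11 with adjusted p of 0.65 to 0.82. As single animals were left out, Nsdhl ran from -0.397 to 0.0638, so that its sign turned. Msmo1 ran from -0.307 to -0.0009, Hsd17b7 from -0.361 to -0.0079, Ebp from -0.296 to -0.0154 and Sc5d from -0.149 to -0.0531. MCT4KO 2 read above every WT animal for Nsdhl (10.99) and Ebp (10.22), and MCT4KO 1 below every one for both (10.07 and 9.67).

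**Figure D2:**
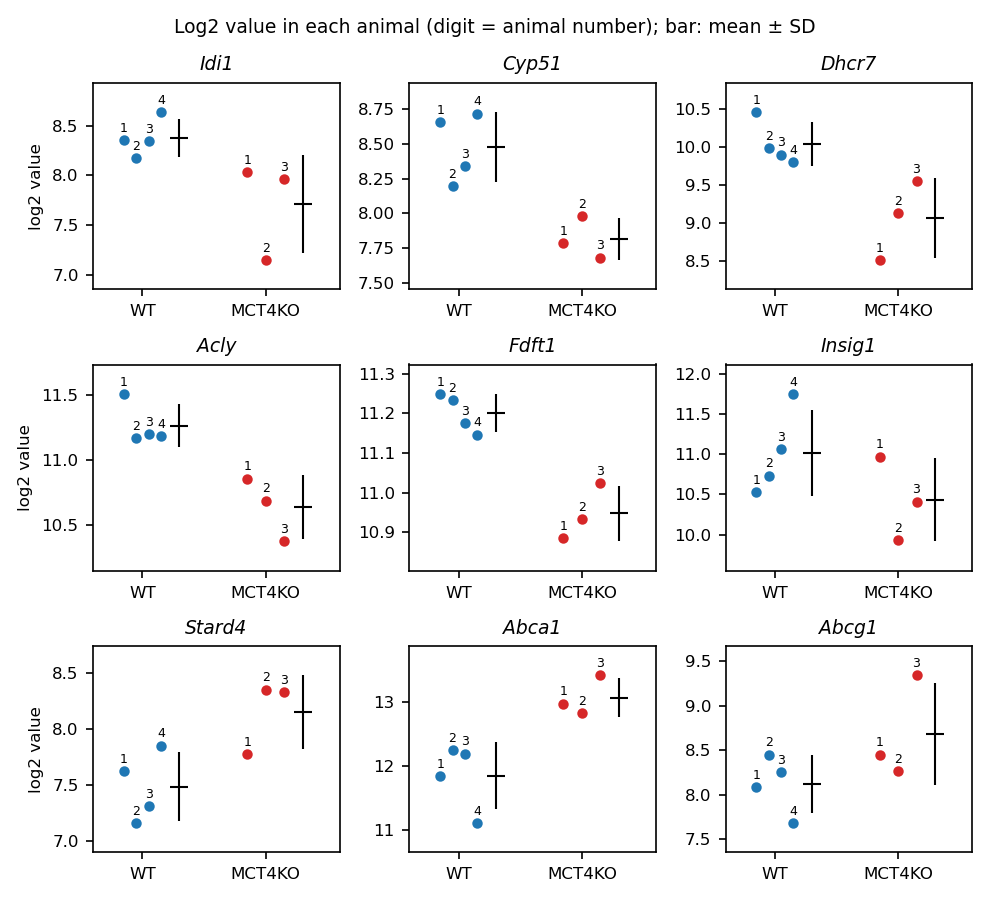
Log2 value of 9 genes in each animal (blue, 4 WT; red, 3 MCT4KO; digits are animal numbers; the cross and bar are mean ± SD, on an axis that does not start at 0). Idi1, Cyp51, Dhcr7, Acly and Fdft1 have no knockout above the lowest wild type, Abca1 has no knockout below the highest wild type, and Insig1, Stard4 and Abcg1 overlap.

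The 3 measured regulators also read below 0, Scap not under quantile normalization. Srebf2, which encodes SREBP-2, the main driver of cholesterol synthesis, read 14.18, 14.18, 14.20 and 14.47 in WT and 14.13, 13.73 and 14.10 in MCT4KO, without overlap. Its change was -0.27 ± 0.151 (adjusted p = 0.49), or -0.14 without MCT4KO 2. Insig1, an anchor of the SREBP complex that is itself an SREBP target, read 10.53, 10.73, 11.06 and 11.75 in WT and 10.97, 9.93 and 10.41 in MCT4KO. The WT range was wide enough to take in MCT4KO 1, and the change was -0.58 ± 0.313 (adjusted p = 0.47), from -0.85 without MCT4KO 1 to -0.33 without MCT4KO 2 (-0.34 without WT 4). Scap, the escort of SREBPs, had -0.04 ± 0.181 (95% CI -0.44 to 0.37), close to 0 on either side.

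The fatty acid branch showed no common direction: of 10 measured genes 5 were below 0 and 5 above (4 and 6 under quantile normalization), with a median of -0.002. Acly stood apart. It encodes ATP citrate lyase, which makes cytosolic acetyl-CoA for both branches, and it read 11.51, 11.17, 11.20 and 11.18 in WT and 10.85, 10.68 and 10.37 in MCT4KO. The groups did not overlap and 3 of the 4 WT animals lay within a narrow band, with WT 1 above it. The mean of Acly went from 11.26 ± 0.163 (SD, n = 4) to 10.64 ± 0.245 (SD, n = 3), a change of -0.63 ± 0.159 (SE; 95% CI -0.98 to -0.27; adjusted p = 0.14), which is 1.55-fold lower. Acss2, which makes the same acetyl-CoA from acetate, had 0.05 ± 0.179 (95% CI -0.36 to 0.45).

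The synthases themselves gave intervals that span 0. Acaca, acetyl-CoA carboxylase of the cytosol, had -0.05 ± 0.192 (0.03 under quantile normalization) and Fasn, fatty acid synthase, -0.11 ± 0.188 (95% CI -0.53 to 0.31); the highest value of both was in WT 2. Acacb, the mitochondrial carboxylase isoform, read 6.19, 6.04, 5.95 and 6.17 in WT and 6.11, 6.33 and 6.31 in MCT4KO, close to the control median, with a change of 0.16 ± 0.131 (adjusted p = 0.63). Elovl5, an elongase of polyunsaturated fatty acids, read 10.85, 11.17, 10.94 and 10.80 in WT and 10.19, 10.79 and 10.97 in MCT4KO. MCT4KO 1 alone lay well below WT, and the change of -0.29 ± 0.195 (adjusted p = 0.57) was -0.06 without it and -0.45 without MCT4KO 3. The other desaturases and elongases lay from -0.13 for Fads1 to 0.17 for Fads2. Scd1, the stearoyl-CoA desaturase that makes monounsaturated fatty acids, read 15.74 to 16.24 in WT and 16.04 to 16.39 in MCT4KO, with a change of 0.14 ± 0.164 (95% CI -0.23 to 0.51). Adipocytes also express this branch strongly: 5 of 9 measured adipocyte markers were at background in both groups and 2 more in WT alone, and Adipoq and Plin1 were at background in all 7 animals. The adipocyte list mean was 5.11 to 5.39 in WT and 5.29 to 5.56 in MCT4KO.

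All 4 measured genes of sterol transfer, efflux and LXR lay above 0, with a median of 0.62, and their mean per animal was 8.53, 8.51, 8.30 and 8.23 (log2) in WT and 8.85, 8.99 and 9.36 in MCT4KO. Abca1, the exporter that loads cholesterol onto apolipoprotein A-I and a classic LXR target, had the smallest p of the whole list. It read 11.85, 12.26, 12.20 and 11.12 in WT and 12.98, 12.83 and 13.42 in MCT4KO. Every knockout lay above every wild type, with WT 4 the lowest of the 7 animals and MCT4KO 3 the highest. The mean went from 11.86 ± 0.525 (SD, n = 4) to 13.08 ± 0.308 (SD, n = 3), a change of 1.22 ± 0.273 (SE; 95% CI 0.61 to 1.83; limma adjusted p = 0.098), or 2.33-fold. The change of Abca1 was 0.97 to 1.35 as single animals were left out, with adjusted p from 0.12 to 0.23, and 0.062 was its smallest adjusted p under any setting.

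Abcg1, the partner exporter that delivers cholesterol to HDL, followed the same order at its extremes, with 8.09, 8.45, 8.25 and 7.69 in WT and 8.45, 8.26 and 9.34 in MCT4KO. MCT4KO 3 alone was clearly above WT, and the change of 0.57 ± 0.269 (adjusted p = 0.43) was 0.24 without it. Stard4, a cytosolic sterol carrier that is known as an SREBP-2 target, read 7.62, 7.16, 7.31 and 7.85 in WT and 7.77, 8.35 and 8.33 in MCT4KO. MCT4KO 1 lay within the WT range and the other knockouts above it, for a change of 0.66 ± 0.208 (adjusted p = 0.24), opposite in sign to 13 of the 16 synthetic enzymes. Nr1h3, which encodes LXR-alpha, had 0.24 ± 0.240 (95% CI -0.30 to 0.78), with values near the control median. The change of Nr1h3 was 0.014 without WT 3, 0.39 without WT 1 and 0.16 without MCT4KO 2, and raising low values to the control median gave 0.098. Macrophages express Abca1 and Abcg1 strongly: the mean of 9 macrophage markers was 5.89 to 6.50 in WT and 5.86 to 6.08 in MCT4KO, with 4 of the 9, C1qa, C1qb, C1qc and Adgre1, at background in both groups and Lyz2 in MCT4KO alone. Of the 9, 5 were higher in MCT4KO and 4 lower. Lyz2 had the largest change and was lower: 5.54 to 9.92 in WT and 4.45 to 5.17 in MCT4KO, without overlap (-2.77, limma adjusted p = 0.24). Its high values were in WT 1 (8.485) and WT 2 (9.92), against 6.30 in WT 3 and 5.54 in WT 4. The mean of the neutrophil and myeloid marrow markers was also highest in WT 1 and WT 2. Mrc1 was lower as well, with 6.61 to 7.31 in WT and 6.46 to 7.08 in MCT4KO (-0.23, limma adjusted p = 0.67). Csf1r read 10.79 to 11.28 in WT and 10.83 to 11.40 in MCT4KO. Fcgr1 read 5.46 to 6.20 in WT and 6.32 to 6.67 in MCT4KO, without overlap (a change of 0.65, limma adjusted p = 0.24), and Cd163 5.95 to 6.30 and 6.29 to 6.83 (0.34, adjusted p = 0.44). The part of macrophages in the higher values of Abca1 and Abcg1 was not tested.

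**Figure D3:**
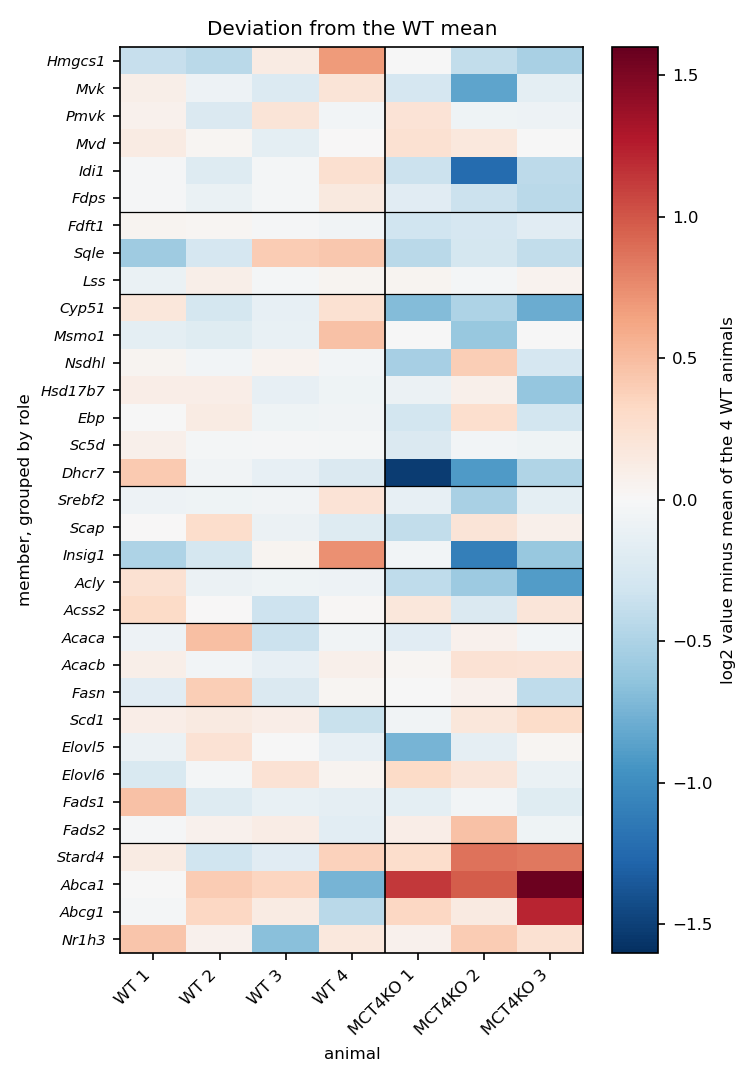
Log2 value of each of the 33 genes in each animal minus the mean of the 4 WT animals (colour scale from -1.6 to 1.6; horizontal lines part the role groups, the vertical line parts WT from MCT4KO). The sterol enzymes are mostly blue in the knockouts with different genes lowest in different animals, such as Dhcr7 in MCT4KO 1 and Idi1 in MCT4KO 2, and Abca1 is red in all 3.

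The animals of a group were not alike within the pathway. WT 4 was the highest wild type for 7 of the 16 sterol enzymes, and also for Srebf2 and Insig1, and the lowest wild type for Abca1 and Abcg1. Among knockouts, MCT4KO 2 was lowest for Mvk, Idi1, Msmo1, Srebf2 and Insig1, while MCT4KO 1 was lowest for Dhcr7 and Fdft1 and MCT4KO 3 for Cyp51 and Acly. The lowest knockout thus differed from gene to gene, although the 3 knockouts had nearly the same mean over the 16 enzymes. Mean values of the fatty acid genes ran from 10.37 to 10.54 in WT and from 10.35 to 10.47 in MCT4KO, with overlap.

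**Figure D4:**
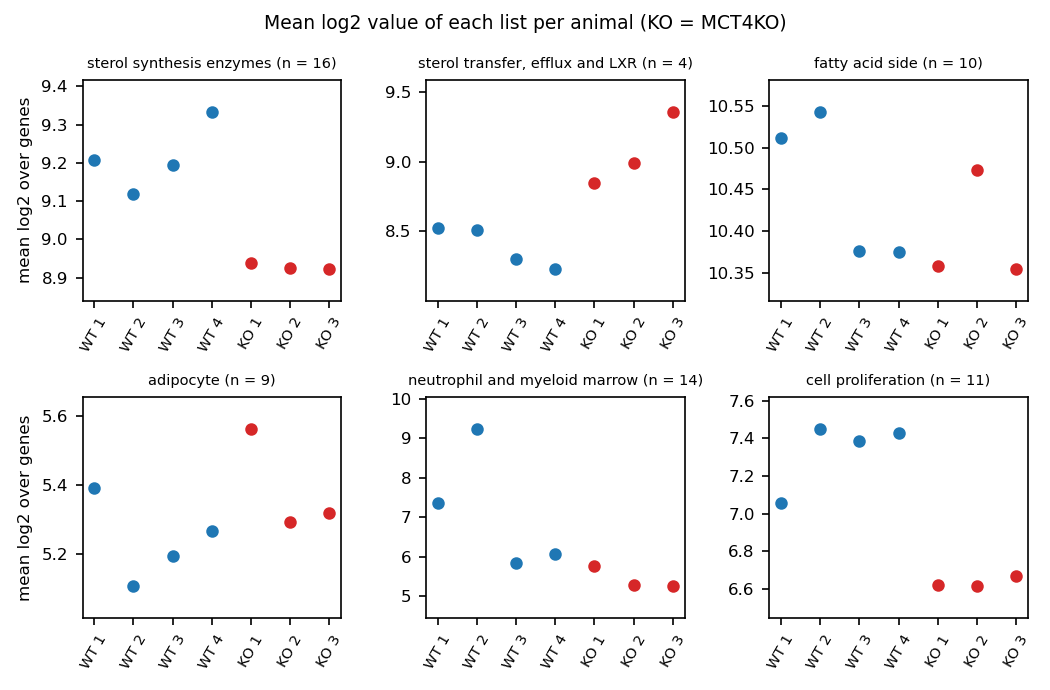
Mean log2 value over each list in each animal (blue, WT; red, MCT4KO; 1 point per animal, axes do not start at 0), with the number of genes in each title. The means of the sterol enzymes (8.92 to 8.94 in MCT4KO, 9.12 to 9.33 in WT), of the transfer and efflux genes and of the proliferation and neutrophil markers do not overlap between the groups, while those of the fatty acid genes and adipocyte markers do.

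Other genes of the pathway were measured as well. Of 16 further sterol genes, 8 were below 0, 0 were called (against 0.590% of all genes) and 2 had an unadjusted p under 0.05 (12.5%, against 12.7% of all genes). Of 26 further fatty acid and glycerolipid genes, 12 were below 0, 0 were called and 2 had such a p (7.69%). Ggps1, which draws farnesyl diphosphate into prenylation, had -0.39 ± 0.149 (limma adjusted p = 0.33) with no overlap: 12.03 to 12.44 in WT and 11.76 to 12.02 in MCT4KO. Cyp27a1, the mitochondrial sterol hydroxylase that makes an oxysterol ligand of LXR, read 11.20 to 11.78 in WT and 10.85 to 11.28 in MCT4KO, a change of -0.53 ± 0.180 (adjusted p = 0.28). Abcg4, an exporter related to Abcg1, had -0.46 ± 0.251 and Cyp7b1, an oxysterol hydroxylase at background in both groups, 0.39 ± 0.202 (adjusted p = 0.47 and 0.46). The change of Abcg4 was -0.23 without WT 2 and that of Cyp7b1 was 0.12 without MCT4KO 2. On the fatty acid side, Me1, malic enzyme, which supplies NADPH, had 0.38 ± 0.147 and Tecr, the reductase that ends each elongation cycle, -0.37 ± 0.144 (adjusted p = 0.33 for each), both without overlap. Elovl2 (0.35, at background in both groups) and Hacd2 (-0.42) had adjusted p of 0.43 for each.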

How the data were processed

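RNA of 7 nucleus pulposus samples was measured on Affymetrix arrays, from 100 ng per labelling per the labels. The authors deposited log2 values for 28846 features. Per the submitters' processing notes, Affymetrix Expression Console 1.4.1 was used; for background correction, normalization and genome build, nothing is given in the sources used here. The log2 scale is read from the values, whose maximum of 19.4 exceeds that of a scanner reading (16).

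Of 22206 transcript clusters, 19572 carried 1 gene symbol, 0 several and 2634 none. The feature with the highest mean was kept per gene, leaving 19505 genes, and each member had 1 feature. All genes were fitted with limma 3.58.1 (R 4.3.3; lmFit, eBayes) without covariates, with 5 residual and 4.66 prior degrees of freedom and Benjamini-Hochberg adjustment over all genes. Arrays give no depth, so the number of animals limits precision (median SE 0.167). On simulated arrays of 19505 genes for MCT4KO against WT, the fit called 7.30% of changes of 0.5 (log2), 80.25% of 1 and 99.5% of 2. The simulated noise was normal and independent, with each gene's spread taken after the moderation by eBayes. Spread in the real arrays may differ, so these shares need not hold for them. Dhcr7, at -0.97 ± 0.248, was not called.

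The gene lists and the members were chosen with earlier results of these data known. Genes with full values are those with an unadjusted p under 0.05, plus the smallest p in each role group and the 4 smallest in each further list; Srebf2, Abcg1, Hmgcs1 and Scd1 among others were added after their values were seen. Alternatives were quantile normalization, median centring, a filter at the control median, averaged features, values raised to control medians, each animal left out, an animal-number block, a trended robust prior and array weights. Protein sequences were not used here.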

Additional observations from a re-analysis of the deposited data

Results flagged for a closer look

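Among 42 genes, the 4 WT values were checked for an animal far from the others by Dixon's test at 95%, and 6 had one, where chance flags about 1 in 20. WT 4 was far from the rest in 4 of them: high for Msmo1 (8.46) and Srebf2 (14.47), and low for Scd1 (15.74) and Cyp27a1 (11.20). WT 1 was far above the rest for Acly (11.51) and Fads1 (13.12). Without WT 4 the change of Msmo1 was -0.048, that of Srebf2 -0.20, that of Scd1 0.02 and that of Cyp27a1 -0.67. Without WT 1 the change of Acly was -0.55 and that of Fads1 turned to 0.02.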

How the results depend on the processing

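Under the settings with a test, no member and no further pathway gene that was fitted was called, while the count over all genes went from 6 with the replicate block to 164 without genes below the control median, a filter that left 32 of the 33 members and 31 of the 42 further genes. The loss of Slc16a3 was called in each of them. The 12 members with full values by rule kept their sign in each setting that gave them a value: 11 of them in all 16, and Fdps, which that filter removed, in 15. The member median, -0.11, was -0.0409 under quantile normalization and -0.059 without WT 1 and WT 2, a setting chosen after seeing the data, which also gave 2 higher members without overlap. Leaving out single animals, the median ran from -0.163 to -0.0566, the count below 0 from 19 to 22, and the higher members without overlap from 1 to 4. Signs turned for small changes. Quantile normalization gave Scap 0.0345 and Acaca 0.0292. Median centring gave Pmvk -0.003, and array weights gave Pmvk -0.0137 and Scap 0.0212. Without WT 1 and WT 2, Pmvk was -0.059, Scap 0.111, Acaca 0.149 and Elovl6 -0.007. Raising values to control medians put Fdps, Cyp7b1 and Elovl2 at -0.0079, the difference of the control medians themselves. With single animals left out, the ranges were -0.0783 to 0.0903 for Pmvk, -0.0092 to 0.0549 for Lss, -0.397 to 0.0638 for Nsdhl, -0.157 to 0.14 for Scap, -0.063 to 0.185 for Acss2, -0.163 to 0.11 for Acaca, -0.203 to 0.033 for Fasn and -0.202 to 0.0247 for Fads1. The causes were not tested. Same-numbered animals did not deviate together (r across genes of -0.127, 0.0157 and 0.0499), and not every animal correlated best with its own number; the replicate block, over 3 numbers, gave 0 called members, 6 members with an unadjusted p under 0.05, 21 below 0 and a median of -0.104. With SEs near 0.18 (the median over members), changes under about 0.5 could seldom be called, and larger ones were not called either. Cyp51 at -0.66 ± 0.165 had a limma adjusted p of 0.14, and Abca1 at 1.22 ± 0.273 one of 0.098.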

Other observations

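Plin4, a coat protein of lipid droplets that was listed among the adipocyte markers, read 7.88, 8.34, 8.13 and 8.27 (log2) in the WT animals and 8.94, 8.49 and 9.34 in the MCT4KO animals, without overlap. Its change was 0.76 ± 0.206 (SE; limma adjusted p = 0.17), and it was named after its values were seen. Plin1, the perilipin of fat cells, was at background in all 7 animals.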
